A study of Mus musculus with 12 samples.

Results

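Of 24327 named genes in the count table that were left once predicted genes and genes with interferon-type names were set aside, 134 were on in the libraries labelled DMBA3-4 TAM and nearly off in those labelled DMSO3-1 TAM. The genes were chosen by their measured levels. A gene was taken when its mean over DMBA3-4 replicates 1, 2, 3, 4 and 6 was at least 5 CPM (1000000 times the count, divided by all counts of the library) and its mean over the 6 DMSO3-1 libraries was at most 5% of that. These values chose the 134 genes, so the gap between the groups is given below as a description and not as a test. DMBA3-4 replicate 5 took no part in the choice. Of the genes at 5 CPM or more, 9577 carried a name that was kept, and 38 further genes met both limits but were set aside by name, 32 of them for an interferon-type name and 6 as predicted genes.

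The 6 DMBA3-4 libraries were labelled as macrophages sorted from tumors of Rag1-/- mice after DMBA exposure, and the 6 DMSO3-1 libraries as such macrophages after DMSO exposure. DMBA3-4 is 1 clone, grown from a single cell of a mammary tumor line of the MMTV-PyMt mouse after repeated exposure to the carcinogen 7,12-dimethylbenz[a]anthracene (DMBA) dissolved in DMSO. DMSO3-1 is 1 clone of the same line exposed to DMSO alone, so that exposure and clone cannot be told apart. Both clones carry mCherry and luciferase and were injected beside the mammary fat pad of female C57BL/6 Rag1-/- mice, which lack T and B cells, and CD45+ CD11b+ F4/80+ cells were sorted from the tumors. No source used here gives the age of the mice. That each of the 6 libraries per group is a separate animal is stated in none of them, so p-values below cover the variation among libraries alone, and that variation may be technical.

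The sorted cell type was not borne out by its defining markers in the count table. Ptprc, which encodes CD45, had 0 to 7 counts per library in DMBA3-4 and 0 to 2 in DMSO3-1, Itgam (CD11b) 0 to 3 and 0 to 2, and Adgre1 (F4/80) 0 to 3 and 0 to 2. The 20 macrophage genes of a marker list held 0.00758% to 0.0132% of counts in DMBA3-4 and 0.00596% to 0.00958% in DMSO3-1 libraries, and none of the 20 was among the 134 genes. The 15 fibroblast markers held 0.354% to 0.499% of counts in DMBA3-4 and 0.502% to 0.602% in DMSO3-1, and the 14 markers of mammary epithelium 0.152% to 0.215% in DMBA3-4 and 0.102% to 0.176% in DMSO3-1. Markers of natural killer cells, T cells and neutrophils held at most 0.000293%, 0.000528% and 0.000205% of counts in any library. The part of these cell types in the levels below was not tested, and in bulk libraries fewer cells of a type and less RNA per cell cannot be told apart. Depth was 3043334 to 4637433 counts per library in DMBA3-4 and 2754820 to 3982916 in DMSO3-1. Within DMSO3-1 the first principal component of log2(CPM + 1) held 50.9% of the variance of 10332 genes and put replicates 1 and 6 at 37.3 and 37.6 and the other 4 at or below -0.87. Within DMBA3-4 it held 35.5% of the variance of 10377 genes and put replicates 5 and 6 at 23.1 and 24.5 and the other 4 below 0. The mean correlation of a library with its group, across 33387 genes, which are no independent replicates, was 0.982 for DMBA3-4 replicate 5 and 0.984 to 0.987 for the other 5, against 0.972 to 0.981 in DMSO3-1. Between the groups 6918 genes were called, 6871 without DMBA3-4 replicate 5 and 7544 without DMSO3-1 replicates 1 and 6.

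Matrix metalloproteinases are secreted as inactive precursors and cut proteins of the matrix once activated, and the TIMP proteins inhibit them. Ligands of the EGF, FGF and Gas6 families bind receptor tyrosine kinases on the cell that makes them or on its neighbours, while transcription factors such as Cebpa, Gata4 and Ebf1 are known for setting cell identity.

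The start regions of the genes were compared first, because a gene without CpG pairs at its start and one with many belong to different promoter types. RefSeq gave 300 bases around the start, most of them before it, for 89 of the 134 genes on GRCm38.p6. Their median was 11 CpG pairs, against 22 for the 7613 genes at 5 CPM or more with an entry, and 72 of the 89 (80.9%) had 5 pairs or more, against 95.6%. GC content had a median of 57.0% in the 89 and 61.7% in the 7613 genes. The promoters of 5 members with high levels or a known role in tumors are shown with each CpG in capitals. Mmp3 (chr9:7445572-7445871, plus strand) has 1 CpG and Cd34 (chr1:194938571-194938870, plus strand) has 7. Emb (chr13:117220323-117220622, plus strand, a start that lies inside the span GENCODE gives the gene) has 14, Gas6 (chr8:13494486-13494785, minus strand) has 17 and Mgmt (chr7:136894336-136894635, plus strand) has 20.
Mmp3: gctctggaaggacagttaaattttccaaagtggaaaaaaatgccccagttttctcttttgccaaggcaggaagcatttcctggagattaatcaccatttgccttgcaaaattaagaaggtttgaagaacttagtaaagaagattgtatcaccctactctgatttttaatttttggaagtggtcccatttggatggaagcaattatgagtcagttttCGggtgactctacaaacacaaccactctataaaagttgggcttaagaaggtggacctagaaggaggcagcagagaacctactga
Cd34: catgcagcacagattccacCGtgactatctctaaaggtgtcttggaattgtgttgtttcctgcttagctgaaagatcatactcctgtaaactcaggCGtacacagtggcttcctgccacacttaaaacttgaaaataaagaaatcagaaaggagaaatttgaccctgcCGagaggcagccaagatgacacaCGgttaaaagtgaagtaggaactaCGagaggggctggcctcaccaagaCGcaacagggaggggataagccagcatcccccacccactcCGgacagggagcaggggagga
Emb: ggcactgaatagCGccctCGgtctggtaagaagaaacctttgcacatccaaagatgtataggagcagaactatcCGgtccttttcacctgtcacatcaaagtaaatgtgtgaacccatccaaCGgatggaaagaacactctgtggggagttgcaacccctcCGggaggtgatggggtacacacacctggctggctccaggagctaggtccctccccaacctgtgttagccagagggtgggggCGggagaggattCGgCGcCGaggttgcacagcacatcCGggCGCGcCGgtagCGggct
Gas6: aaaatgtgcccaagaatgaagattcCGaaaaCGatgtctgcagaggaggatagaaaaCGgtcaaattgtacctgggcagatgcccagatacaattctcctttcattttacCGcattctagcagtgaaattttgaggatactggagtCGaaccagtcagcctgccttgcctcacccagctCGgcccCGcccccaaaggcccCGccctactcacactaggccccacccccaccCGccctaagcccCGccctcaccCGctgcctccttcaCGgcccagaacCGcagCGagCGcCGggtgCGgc
Mgmt: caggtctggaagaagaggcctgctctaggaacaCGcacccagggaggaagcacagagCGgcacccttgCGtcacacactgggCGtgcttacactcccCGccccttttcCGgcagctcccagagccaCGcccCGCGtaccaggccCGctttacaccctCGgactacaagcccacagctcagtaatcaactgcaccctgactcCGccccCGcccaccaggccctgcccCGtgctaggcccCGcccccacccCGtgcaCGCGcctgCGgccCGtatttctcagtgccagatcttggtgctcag
The CpG number of these 5 ran from 1 in Mmp3 to 20 in Mgmt. Among the 89 it was 0 for Sprr1a, at 5.03 CPM in DMBA3-4, and 56 for Tafa5. No link to level is read from the 5 shown.

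Letters that transcription factors are known to bind were searched on both strands of such stretches of 300 bases. Where a gene had several starts listed, a match at any of them counted, while its CpG and GC values came from the first. TATAAA, read by the TATA-binding protein, was found in 12 of 89 members (13.5%), Mmp3 among them, against 8.07% of the genes at 5 CPM or more and 15.7% of all 27025 promoters. The STAT motif TTCNNNGAA was found in 4 members (4.49%, against 7.88% and 9.55%) and the aryl hydrocarbon receptor core GCGTG in 40 (44.9%, against 59.1% and 35.2%). A match is a description of the letters.

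The 134 genes together held 0.685%, 0.692%, 0.681%, 0.692% and 0.715% of all counts in DMBA3-4 replicates 1, 2, 3, 4 and 6 and 0.445% in replicate 5. They held 0.0101% to 0.0185% (median 0.0144%) in the 6 DMSO3-1 libraries, with replicates 6 and 1 the highest of these, at 0.0185% and 0.0168%. Replicate 5 thus lay below the other DMBA3-4 libraries and far above every DMSO3-1 library. Single genes had means of 5.03 to 1675 CPM (median 14.1) over the 5 libraries of the rule. Of the 134, 13 were at 100 CPM or more, 27 at 50 CPM or more and 44 under 10 CPM. In DMSO3-1, 13 genes had 0 counts in all 6 libraries, 81 had at most 3 counts in their highest library, and 46 had a mean under 1% of that in DMBA3-4.

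**Figure D1:**
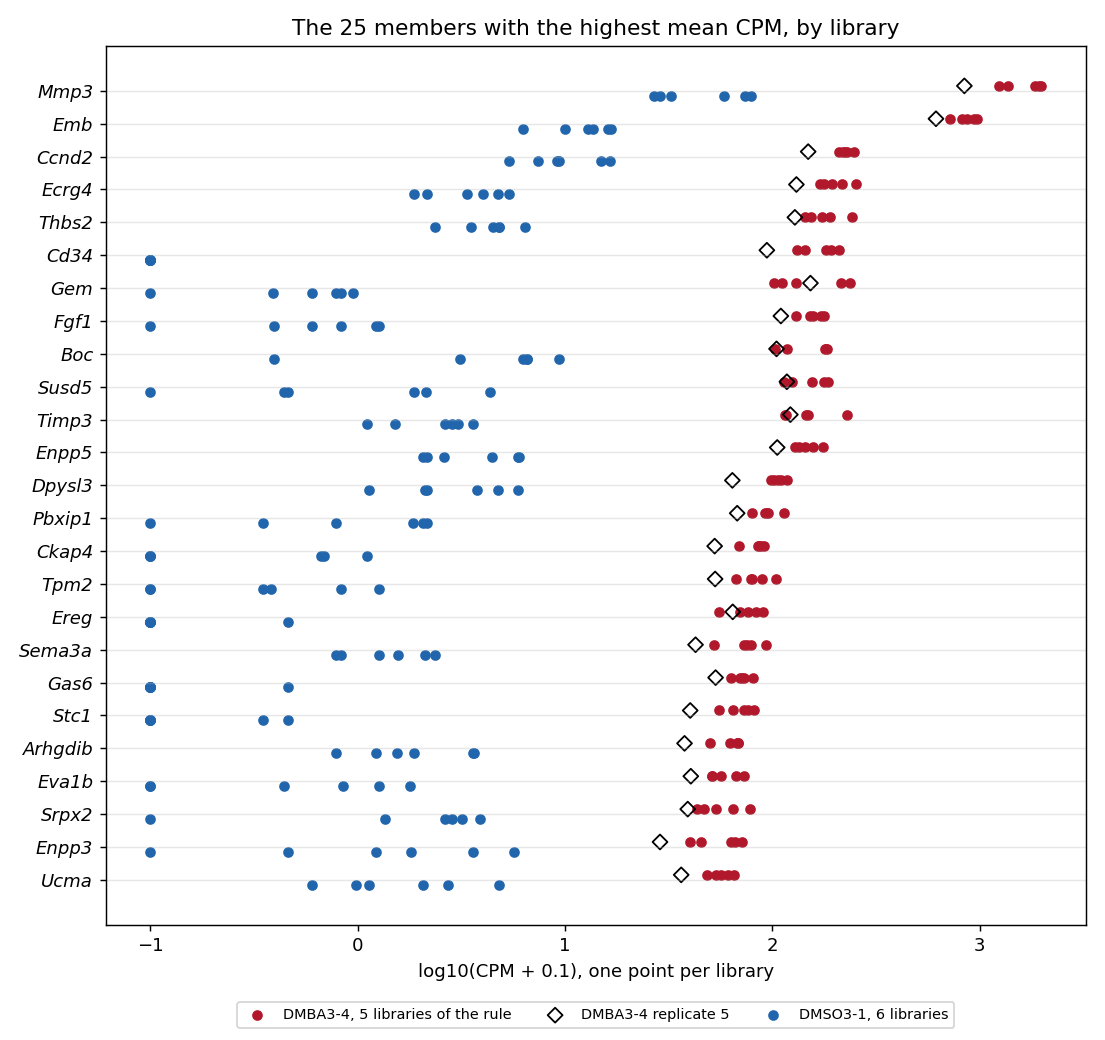
Level of the 25 members with the highest mean, one row per gene, as log10(CPM + 0.1) on the x axis with one point per library. Red points are the 5 DMBA3-4 libraries that chose the genes, open diamonds DMBA3-4 replicate 5 and blue points the 6 DMSO3-1 libraries, which lie to the left of all DMBA3-4 points in every row.

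Among 14 genes of the matrix and its enzymes, Mmp3 stood out in level. Mmp3, which encodes stromelysin-1 (chromosome 9, 7445822 to 7455975 on GRCm38, plus strand, protein coding), was at 1242, 1977, 1938, 1364 and 1856 CPM in DMBA3-4 replicates 1, 2, 3, 4 and 6 and at 844 CPM in replicate 5. In DMSO3-1 it was at 26.9 to 78.8 CPM (median 45.5). The groups did not overlap, and Mmp3 was not off in DMSO3-1: with a mean of 49.8 ± 23.4 CPM (SD, n = 6) it was the member with the highest level there. Per kilobase of exon it led the group as well, at 930 CPM per kb in DMBA3-4, followed by Ecrg4 at 224 and Emb at 125 CPM per kb.

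Thbs2, a matricellular protein that binds proteases and growth factors, averaged 181 ± 39.1 CPM in the 5 DMBA3-4 libraries of the rule (SD, n = 5), 128 CPM in replicate 5 and 4.29 ± 1.36 CPM in DMSO3-1 (SD, n = 6). Timp3, an inhibitor of metalloproteinases bound to the matrix, was at 148, 115, 116, 145 and 230 CPM in DMBA3-4 replicates 1, 2, 3, 4 and 6 and 122 CPM in replicate 5, against 1.00 to 3.50 CPM in DMSO3-1. Susd5, a membrane protein of the sushi-domain group, averaged 151 ± 31.1 CPM in DMBA3-4 (SD, n = 5) and 1.46 ± 1.59 CPM in DMSO3-1 (SD, n = 6). Both an enzyme that cuts matrix and an inhibitor of such enzymes were thus in the group. Srpx2, a secreted sushi-repeat protein, averaged 57.1 ± 14.0 CPM and the cartilage protein Ucma 56.8 ± 6.56 CPM in DMBA3-4 (SD, n = 5). The collagen genes of the group were low, with means of 15.8 CPM for Col15a1, 12.2 CPM for Col2a1 and 5.12 CPM for Col6a6 in DMBA3-4.

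Fap, the fibroblast activation protease, was the member that also belongs to the fibroblast marker list. It was at 28.0, 15.6, 17.7, 32.5 and 16.2 CPM in DMBA3-4 replicates 1, 2, 3, 4 and 6 and 7.09 CPM in replicate 5, against 0 to 3.21 CPM in DMSO3-1 (median 0.297). The whole fibroblast list held a lower share of counts in DMBA3-4 than in DMSO3-1. In the edgeR comparison of all 12 libraries 2 of its 12 tested genes were higher and 4 lower. Fap was among the 2, a call that the rule fixed. Over all 11511 genes tested the shares were 29.9% and 30.2%.

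The 17 secreted ligands and hormones were led by Ecrg4, the precursor of the peptide augurin, at 202 ± 33.2 CPM in DMBA3-4 (SD, n = 5) and 3.50 ± 1.41 CPM in DMSO3-1 (SD, n = 6). Fgf1, a growth factor that binds all FGF receptors, was at 176, 151, 131, 172 and 157 CPM in DMBA3-4 replicates 1, 2, 3, 4 and 6 and 110 CPM in replicate 5. In DMSO3-1 it ran from 0 to 1.17 CPM (median 0.614). Ereg, which encodes epiregulin, a ligand of the EGF receptor family, averaged 75.0 ± 13.6 CPM in DMBA3-4 (SD, n = 5), and in DMSO3-1 5 of 6 libraries had 0 counts and the other 0.363 CPM. Gas6, the ligand of the receptors TYRO3, AXL and MERTK, was close to it with 71.3 ± 6.17 CPM in DMBA3-4 (SD, n = 5) and the same single DMSO3-1 library, replicate 6, above 0. Sema3a, an axon guidance cue, averaged 74.3 ± 14.8 CPM and Stc1, the hormone stanniocalcin, 70.1 ± 10.3 CPM in DMBA3-4 (SD, n = 5). The lowest ligand was Ptn, which encodes pleiotrophin, at a mean of 5.52 CPM. One FGF receptor gene was also a member, Fgfr2 with 5.54 CPM in DMBA3-4.

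Of 23 receptors and adhesion molecules, Emb and Cd34 were the highest. Emb encodes embigin, which brings monocarboxylate transporters to the cell surface, and was at 966, 872, 823, 942 and 723 CPM in DMBA3-4 replicates 1, 2, 3, 4 and 6 and 616 CPM in replicate 5, against 6.16 to 16.6 CPM in DMSO3-1. Cd34, a sialomucin of blood progenitors, vessels and some stromal cells, was at 143, 192, 182, 131 and 209 CPM in DMBA3-4 replicates 1, 2, 3, 4 and 6 and 94.0 CPM in replicate 5. It had 0 counts in all 6 DMSO3-1 libraries. Taking 3 counts over the group as the limit that 0 allows, 0.150 CPM, its mean over the 6 DMBA3-4 libraries was at least 1059.5-fold higher. This bound covers counting error only. Boc, a co-receptor of hedgehog signaling, averaged 153 ± 39.5 CPM in DMBA3-4 (SD, n = 5) and 5.27 ± 3.14 CPM in DMSO3-1 (SD, n = 6). Vsir, which encodes the checkpoint ligand VISTA, was lower, at 24.5 ± 3.54 CPM in DMBA3-4 (SD, n = 5) and 0 to 1.75 CPM in DMSO3-1.

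Regulators of the cell cycle and of small GTPases made up 14 members. Ccnd2, which encodes cyclin D2 of the G1 phase, had the smallest spread of the genes above 200 CPM, with 226 ± 14.4 CPM in DMBA3-4 (SD, n = 5), and 149 CPM in replicate 5. Its DMSO3-1 mean of 10.3 ± 4.33 CPM (SD, n = 6) was 4.58% of that, near the limit of the rule. Gem, a small GTPase of the RGK type, varied most among the 25 highest members. It was at 236, 102, 112, 213 and 131 CPM in DMBA3-4 replicates 1, 2, 3, 4 and 6 and 153 CPM in replicate 5, against 0 to 0.845 CPM in DMSO3-1.

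Among 14 transcription regulators, Pbxip1, which binds PBX homeodomain proteins, averaged 95.0 ± 12.4 CPM in DMBA3-4 (SD, n = 5) and 1.12 ± 0.916 CPM in DMSO3-1 (SD, n = 6). Rhox5, an X-linked homeobox gene that is on in testis, placenta and many tumor lines, was at 48.2, 37.9, 49.6, 41.7 and 27.9 CPM in DMBA3-4 replicates 1, 2, 3, 4 and 6 and 29.2 CPM in replicate 5. In DMSO3-1 it had 0 counts in 4 of 6 libraries and at most 1.09 CPM. Xlr, a germline gene of a multicopy X-linked family, averaged 40.3 ± 8.24 CPM in DMBA3-4 (SD, n = 5) and 0.591 ± 0.688 CPM in DMSO3-1 (SD, n = 6), and reads of its close relatives could be split between them. Of a list of 78 germline and cancer-testis genes 6 could be tested over all 12 libraries, 5 higher and 1 lower in DMBA3-4. The shares over all genes tested were 29.9% and 30.2%. The 5 include Rhox5 and Xlr, whose calls the rule fixed, so nothing is read from this count. With both of them in it, the list had a median log2 fold change of 0.85, against 0.003 for all genes. Cebpa, Ebf1, Gata4 and Tbx2, factors of myeloid, B cell and mesodermal development, had means of 6.94, 19.9, 6.68 and 5.62 CPM in DMBA3-4.

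Of 10 ectoenzymes, transporters and channels, Enpp5 and Enpp3 are relatives of the nucleotide pyrophosphatase family. Enpp5 averaged 148 ± 18.6 CPM in DMBA3-4 (SD, n = 5) and 3.77 ± 1.83 CPM in DMSO3-1 (SD, n = 6). Enpp3 averaged 57.0 ± 13.6 CPM in DMBA3-4 (SD, n = 5) and 2.04 ± 2.12 CPM in DMSO3-1 (SD, n = 6). The 10 metabolic and DNA repair enzymes were all low, at 5.17 to 15.7 CPM in DMBA3-4. Among them Mgmt, the protein that removes alkyl groups from guanine in DNA, was at 8.70, 11.2, 18.3, 18.1 and 13.8 CPM in DMBA3-4 replicates 1, 2, 3, 4 and 6 and 7.91 CPM in replicate 5, against 0 CPM in 5 of 6 DMSO3-1 libraries and 0.292 CPM in the other. The other 32 members had means of 5.03 to 107 CPM, with Dpysl3, a cytoskeletal protein of growing axons, at 107 ± 7.50 CPM, Ckap4, a protein of the endoplasmic reticulum, at 83.8 ± 8.71 CPM and Tpm2, a muscle-type tropomyosin, at 83.7 ± 13.7 CPM (SD, n = 5 each).

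The name filter did not remove every gene that interferon induces. Apol6, Ly6c2 and Sp110 were members and also belong to a list of such genes outside the excluded names, so the group is without interferon-type names but not without such genes. Apol6, an apolipoprotein L gene, was at 11.8 to 17.3 CPM in the 5 DMBA3-4 libraries of the rule, 9.27 CPM in replicate 5 and 0 to 1.00 CPM in DMSO3-1. Sp110, a nuclear body protein, averaged 7.34 ± 2.15 CPM and Ly6c2, a surface protein of monocytes, 7.86 ± 4.10 CPM in DMBA3-4 (SD, n = 5), and reads of Ly6c2 could be shared with its close paralog Ly6c1. Over all 12 libraries 66 of the 92 tested genes of that list were higher and 8 lower in DMBA3-4 (edgeR, adjusted p under 0.05). Apol6 is among the 66, its call fixed by the rule. The shares over all genes tested were 29.9% and 30.2%, and the median log2 fold change of the list was 1.02. No member was among the cytokine and chemokine list or among the aryl hydrocarbon receptor targets. In the first, 13 of 32 tested genes were higher and 12 lower, with a median log2 fold change of -0.087. In the second, 0 of 4 were higher and 2 lower. The shares over all genes, 29.9% and 30.2%, are the background of both.

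Genes just inside and just outside the limits had close values. Lrp12, Tmem100 and Mmd had DMSO3-1 means of 4.83%, 4.80% and 4.79% of their DMBA3-4 means, while Dhx58, an interferon-induced RNA sensor, Efr3b and Krba1 stayed out at 5.04%, 5.05% and 5.13%. By level, Sprr1a, AC020971.1 and Col6a6 came in at 5.03, 5.05 and 5.12 CPM, and Parvb, Rnf180 and Ptgfr stayed out at 4.99, 4.96 and 4.77 CPM. In the edgeR comparison of all 12 libraries 60.1% of 11511 tested genes passed an adjusted p of 0.05, and 29.9% of the 11511 were higher in DMBA3-4. Of the 134 members 114 had enough counts to be tested and 114 were called higher, which the rule fixed and from which nothing is read.

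DMBA3-4 replicate 5, the library that did not choose the genes, was above all 6 DMSO3-1 libraries for 134 of 134 members, where 35.0% of the 9577 genes at 5 CPM or more were. All 6 DMBA3-4 libraries were above all 6 DMSO3-1 libraries for the same 134, against 21.6% of those genes. The DMSO3-1 values did enter the rule, so only the replicate 5 side of this comparison is free of it. In an edgeR quasi-likelihood test of replicate 5 against the 6 DMSO3-1 libraries, in which the spread comes from DMSO3-1 and the single library is assumed to vary alike, 103 members were called higher and 0 lower, 10 were tested and not called, and 21 had too few counts. Over all genes 3.50% of 13036 were called higher and 6.26% in either direction. The count filter asked for enough counts in 1 library, which for a gene near 0 in DMSO3-1 could be replicate 5 alone, so the count of 103 is given with that limit.

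In this test Emb stood at a log2 fold change of 5.59 (edgeR, adjusted p = 1.56e-05) and Mmp3 at 4.06 (edgeR, adjusted p = 0.000759). Gem was at 8.12, Fgf1 at 7.30, Ereg at 9.50 and Mgmt at 6.49. Rhox5 was at 6.91, and at 7.07 with DESeq2. These genes were near 0 in DMSO3-1 and passed the count filter through replicate 5, so their fold changes alone are given. The fold changes of such genes depend on the prior count of the fit and are no bounds. The low DMSO3-1 values that chose the members also set the spread of this test, which limits every adjusted p-value from it. Enpp3 was close to the threshold, at 3.72 (edgeR, adjusted p = 0.0367), and was not past it without DMSO3-1 replicate 3 (adjusted p = 0.0735) or replicate 4 (adjusted p = 0.0745). The 10 that were tested and not called were Itga1, Fap, Ptprv, Lefty1, Slc9a9, Cgref1, B4galt4, Slc2a10, Peg3 and AC020971.1, and Fap stood at 3.07 (edgeR, adjusted p = 0.128).

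**Figure D2:**
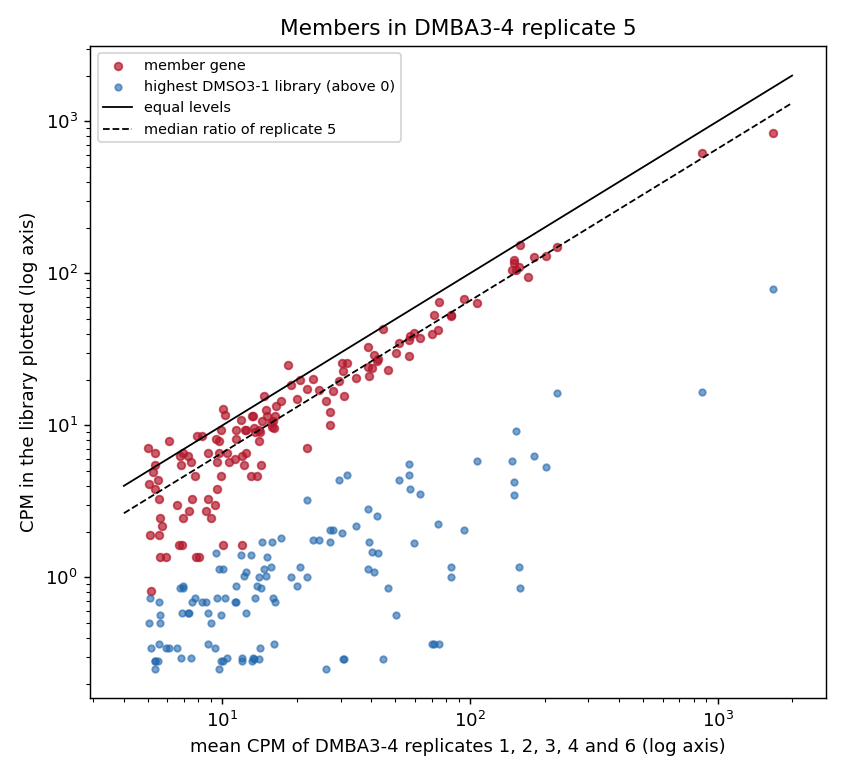
Each red point is a member, with its mean CPM over DMBA3-4 replicates 1, 2, 3, 4 and 6 on the x axis and its CPM in DMBA3-4 replicate 5 on the y axis, both log axes. Blue points give the highest DMSO3-1 library of the same gene where it is above 0. Most red points lie under the solid line of equal levels, along the dashed line at the median of 66.0%, and all lie above the blue point of their gene.

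The level in replicate 5 was lower than in the other DMBA3-4 libraries for most members. It was below the mean of the other 5 for 124 members and at or above it for 10, and it was the lowest of the 6 libraries for 87 and the highest for 1. The median member stood at 66.0% of the mean of the other 5 (quartiles 50.9% and 80.9%), against 97.5% (85.4% and 110.9%) for the 9577 genes at 5 CPM or more. Members were chosen for high values in those 5 libraries and not in replicate 5, so the choice itself favours lower values in replicate 5. How much of the difference this makes was not tested. The median was 67.4% for the 27 members at 50 CPM or more and 59.3% for the 44 under 10 CPM. By role the medians ran from 59.1% for receptors and adhesion molecules to 71.1% for transcription regulators, and the ranges of all roles overlapped.

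The highest values relative to the other 5 DMBA3-4 libraries were those of Sprr1a (141%), a cornified envelope protein, Gdf10 (134%), a ligand of the BMP family, Dkk2 (129%), a Wnt antagonist, Odf3l1 (128%) and Gpr37l1 (123%), an orphan receptor. The lowest were Kcnip3 (13.6%), a calcium-binding protein that modulates potassium channels, Aoah (15.8%), a lipase that inactivates bacterial lipopolysaccharide, Csmd3 (16.2%), S1pr3 (16.9%), a receptor of sphingosine 1-phosphate, and Ly6c2 (17.3%). All 10 were low in level, between 5.03 and 18.5 CPM in DMBA3-4. Kcnip3 was at 9.40, 17.3, 15.7, 7.89 and 9.84 CPM in replicates 1, 2, 3, 4 and 6 and 1.64 CPM in replicate 5, against 0 to 0.282 CPM in DMSO3-1.

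Replicate 5 also held transcripts of the opposite group of genes. Under the same limits turned round, 127 genes were on in DMSO3-1 and at most 5% of that in the other 5 DMBA3-4 libraries. Replicate 5 stood at a median of 30.6% of the DMSO3-1 mean for them (quartiles 19.9% and 48.4%), and it was the highest DMBA3-4 library for 120 of 127, against 17.7% of the 9552 named genes at 5 CPM or more in DMSO3-1. The 127 were chosen for low values in the other 5 DMBA3-4 libraries (median 1.80%) and not in replicate 5. The choice itself thus favours higher values in replicate 5, and how much of the difference this makes was not tested. Of the marker lists, fibroblasts held 0.479% and mammary epithelium 0.171% of counts in replicate 5. It was the lowest of the 6 DMBA3-4 libraries for macrophage genes (0.00758%) and for interferon-induced genes outside the excluded names (0.933%, against 0.459% to 0.588% in DMSO3-1). It was the highest of the 6 for endothelial markers (0.00139%, against 0.00189% to 0.00467% in DMSO3-1) and for cytokines and chemokines (0.213%, against 0.270% to 0.320% in DMSO3-1). The part of these values in the lower levels of the 134 genes was not tested.

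**Figure D3:**
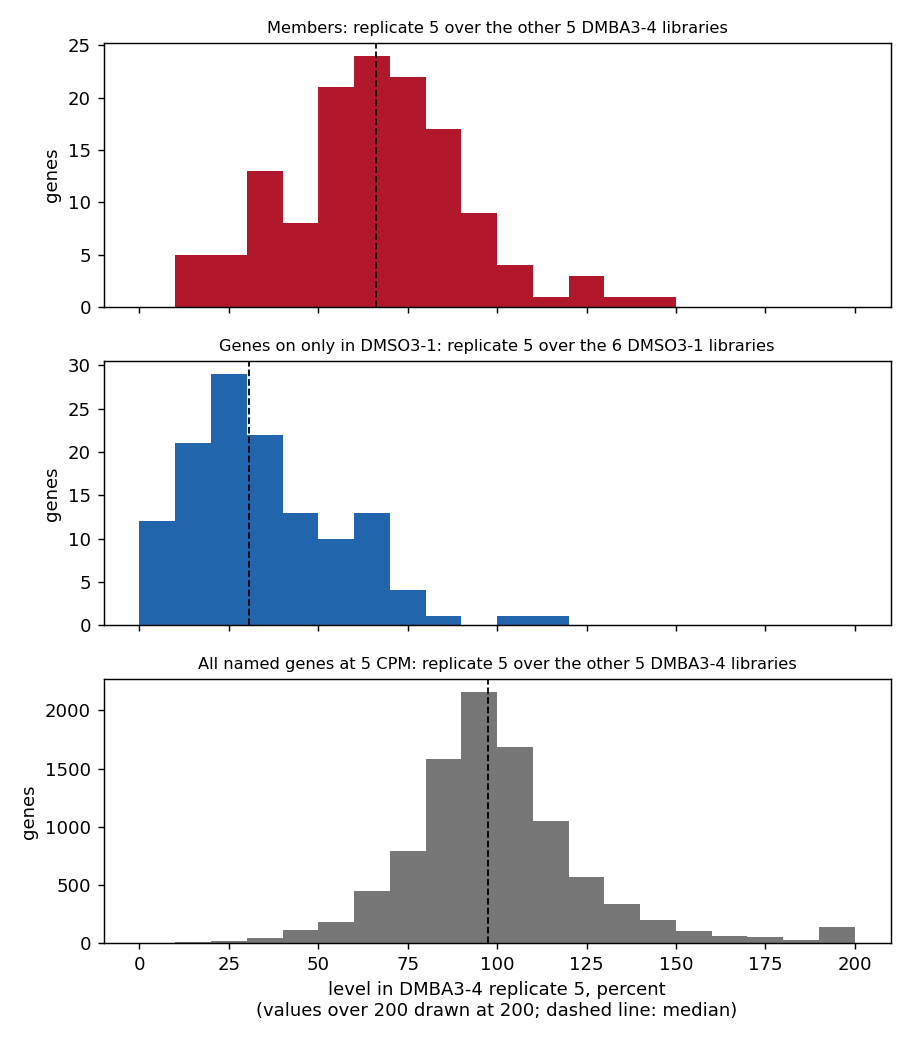
Number of genes (y axis) by their level in DMBA3-4 replicate 5 in percent (x axis, values over 200 drawn at 200), with the median as a dashed line. The 134 members, as percent of the other 5 DMBA3-4 libraries, have a median of 66.0%, the 127 genes on only in DMSO3-1, as percent of the DMSO3-1 mean, 30.6%, and the 9577 named genes at 5 CPM or more, as percent of the other 5 DMBA3-4 libraries, 97.5%.

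Among the other 5 DMBA3-4 libraries the members did not share 1 order of libraries. The coefficient of variation had a median of 23.9%, with 16.4% for the 27 members at 50 CPM or more and 29.0% for those under 10 CPM, where counts are few. Of 51 members at 20 CPM or more, 18 had replicates 1 and 4 as their 2 highest libraries, among them Emb, Gem, Thbs2, Fgf1, Ereg and Fap, and 8 had the same 2 as their lowest, among them Mmp3, Cd34 and Tpm2. The other 9 pairs of libraries were the 2 highest for 1 to 6 members each, and the 2 lowest libraries were most often replicates 2 and 3 (16 members) and replicates 2 and 6 (9). This pattern was noticed in these values and is a description.

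The members were spread over the genome and were mostly protein coding. GENCODE M21 on GRCm38 gave coordinates for 133, of which 130 were protein coding, with a median exon length of 4297 bp, against 4667 bp for genes at 5 CPM or more. Chromosome 2 held 14 members (10.5%, against 8.13% of the genes at 5 CPM or more), chromosomes 4 and 15 held 10 each (7.52%, against 6.39% and 4.04%), chromosome 18 held 6 (4.51%, against 2.56%), and chromosome 8 held 1, Gas6 (0.752%, against 5.72%). A gene on the opposite strand overlapped 59 members and one on the same strand 30. Overlaps were counted for members alone, so whether these numbers are high is not known. Strand-specific counting was not given in the sources used here, so reads of such pairs cannot be told apart.

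For each of the 133 the nearest gene on either side at 5 CPM or more in one of the groups was taken. Of these 266 neighbours 14 were members themselves, as 7 pairs counted from both sides, and the rule placed them at or below 5%. Of the other 252, 183 (72.6%) had a DMSO3-1 mean of 50% to 200% of the DMBA3-4 mean. Of the 10852 such genes that were no members 74.5% did. That 0 of the 252 were at or below 5% was nearly fixed, since only genes set aside by name could be. Anks6, Galnt12 and Col15a1 lie in a row on chromosome 4, with 34482 bp between the first pair and 85091 bp between the second. Dusp2, a phosphatase of MAP kinases, and Kcnip3 lie 118122 bp apart on chromosome 2, Eif4e3 and Prok2 44528 bp apart on chromosome 6, and Tmem100 and Mmd 212948 bp apart on chromosome 11. Fgf1 and Arhgap26 lie 63673 bp apart on chromosome 18, and Ly6c2 and Top1mt 545065 bp apart on chromosome 15. Beside Enpp3 lies its relative Enpp1 with a DMSO3-1 mean at 10.7% of that in DMBA3-4, and beside Itga1 lies Itga2 at 7.72%. Other relatives went the opposite way, with Epgn at 439% and Areg at 179.7% on either side of Ereg and Sema3e at 448% beside Sema3a. Mmp3 lies between Dcun1d5 and Tmem123 at 114% and 91.8%.

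**Figure D4:**
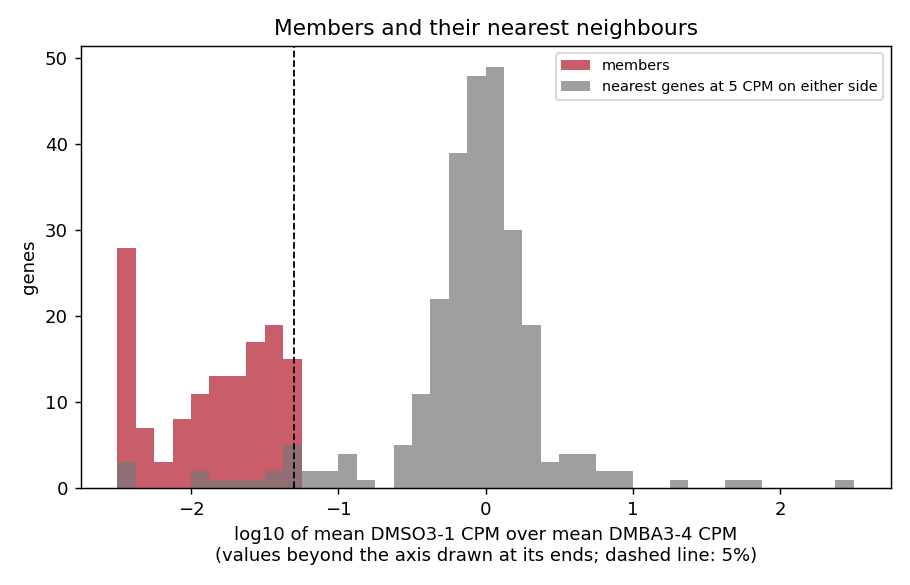
Number of genes (y axis) by log10 of the mean DMSO3-1 CPM over the mean DMBA3-4 CPM (x axis, values beyond it drawn at its ends), in red for the 134 members, which the rule placed left of the dashed line at 5%, and in gray for the 266 nearest genes at 5 CPM or more on either side. Most neighbours lie around 0, which is equal levels, and the 14 at or left of the line are members themselves.

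The authors' deposited comparison table lists all 134 members with a mean normalized count over its samples. The median of the members was 3.05 there, against 114 for the genes at 5 CPM or more in the count table, and 82 members (61.2%, against 9.48%) were under 10. The order of the genes was another one. Unc93b1, which carries Toll-like receptors to endosomes, had the highest authors' mean of 5499 normalized counts, followed by Arhgdib at 2928 and Vsir at 2037, while the count table has Unc93b1 at 15.9 CPM in DMBA3-4. These means are pooled, so they carry no SD or n, and the table's own samples are named differently from those that were counted.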

How the data were processed

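Whole-number counts per gene were deposited by the authors for 12 libraries (DMBA3-4 TAM and DMSO3-1 TAM, 6 each), without normalization. GRCm38 (mm10) is the build in the submitters' processing notes. No source used here gives the aligner or the counter. The sample labels describe column-purified RNA and another library kit than the paper's methods, which name SmartSeq2. The authors also deposited a comparison table with columns named as in DESeq2 output. Limma is the tool that the paper's methods give for its comparison. Of the deposited table the column of mean normalized counts was used, a signal deposited by the authors that by its name is a mean over libraries of counts divided by size factors, and its fold changes and p-values were not.

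CPM were counts divided by the whole column sum, as the rule of choice has it. This sum includes 19 entries with a number for a name, at 0.0893% to 0.128% of counts. The 134 members, the gene lists and the motifs were chosen with earlier results of these data known. An interferon response element and an NF-kappaB site were also searched and are not reported, since no file used here gives their letters. The list of members took 22 name beginnings out of the table of 55202 genes. Roles were assigned by hand after the members were known. Genes named are the 25 with the highest mean, members of a list, the 5 highest and 5 lowest in replicate 5 relative to the other DMBA3-4 libraries and 3 on either side of each limit. Other genes in the text, such as Mgmt, Vsir, Cebpa, Ebf1, Gata4, Unc93b1 and the neighbours, were named after their values were seen.

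Groups were compared with the robust quasi-likelihood test of edgeR 4.0.16 in R 4.3.3, with filterByExpr, TMM and Benjamini-Hochberg adjustment over all genes tested, threshold 0.05. Alternatives were DESeq2 1.42.0, limma-voom (limma 3.58.1), other scalings, no filter, a replicate block, other limits of the rule and leaving out each library in turn. The fits were tested on simulated data with a spread set in advance. There the fit of 6 against 6 libraries found most of the 2-fold changes, and the fit of replicate 5 against 6 libraries missed most of them. Depth was 2754820 to 4637433 counts per library. In a single library 0 counts allow up to 3 counts, which is 0.647 to 1.09 CPM, and this covers counting error only. Each pair of libraries differed by more than sampling noise (chi-square per gene of at least 2.67). Coordinates are from GENCODE M21 and promoters from RefSeq (GRCm38.p6), matched by symbol.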

Additional observations from a re-analysis of the deposited data

Results flagged for a closer look

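Values that lay far from the rest of their group were looked for in 58 sets of libraries, where chance gives about 1 in 20, and 4 were found. The share of all counts held by the 134 genes was 0.445% in DMBA3-4 replicate 5, and the nearest DMBA3-4 library had 0.681%. Dpysl3, the cytoskeletal protein of growing axons, was at 64.0 CPM in DMBA3-4 replicate 5, with 98.4 CPM in the nearest library of the group. Timp3, the metalloproteinase inhibitor, was at 230 CPM in DMBA3-4 replicate 6, with 148 CPM in the nearest. Fap, the fibroblast activation protease, was at 3.21 CPM in DMSO3-1 replicate 2, with 0.845 CPM in the nearest.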

How the results depend on the processing

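The number of genes that met the rule was 134, and 75 did so with the ratio limit at 2%, since fewer genes pass a stricter limit. It was 188 at a limit of 10%, 90 with the level limit at 10 CPM, 173 at 2 CPM, 130 with replicate 5 in the DMBA3-4 mean (128 of them shared) and 127 to 137 with 1 library left out (125 to 132 shared). By choices made after seeing the data it was 129 without DMSO3-1 replicates 1 and 6 (124 shared) and 142 without DMSO3-1 replicates 2 to 5 (123 shared). Over all 12 libraries 6918 genes were called, and 6490 to 7139 with 1 library left out. Without DMSO3-1 replicates 2 to 5 the count was 4605, from fewer libraries. The number of members called in replicate 5 changed with the method, the filter and the DMSO3-1 libraries used. The number called over all genes changed with them too, and by more, so nothing is read from how steady the member count was. Besides Enpp3, the calls of Rhox5, Dkk2 and Sprr1a depended on the method or on the DMSO3-1 libraries used, and the cause was not tested. Rhox5 had a log2 fold change of 7.07 with DESeq2, and Dkk2 and Sprr1a had 6.48 and 7.57 with edgeR. These genes were near 0 in DMSO3-1 and passed the count filter through replicate 5, so nothing is read from their calls. Fap passed with limma-voom (adjusted p = 0.026), with no filter (adjusted p = 0.00657 from edgeR), without DMSO3-1 replicate 2 (adjusted p = 0.0486 from edgeR) and without DMSO3-1 replicates 2 to 5 (adjusted p = 0.000596 from edgeR). The median of replicate 5 was 65.0% to 67.3% of the other libraries with 1 of them left out. Libraries of the same number did not deviate together (correlations of -0.158 to 0.128), and with the replicate number as a block 6481 genes were called.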
